A study of Homo sapiens with 24 samples.

Results

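The cytosolic ribosomal protein genes encode the protein shell of the ribosome that translates nuclear mRNAs. They were taken here as the protein-coding rows of the count table whose gene symbol begins with RPL or RPS and a digit, together with RPLP0, RPLP1, RPLP2 and RPSA, without the RPS6K kinases. This gave 90 of the 34213 genes in the table. Of these, 86 passed the filter on low counts and were tested, 52 with large-subunit names and 34 with small-subunit names, among 16076 tested genes. The 4 untested members were RPL10L, a retrocopy of RPL10 with 57 counts over all libraries, and RPL17-C18orf32, RPL36A-HNRNPH2 and RPS10-NUDT3. The latter are readthrough genes, and each is listed at 0 in all 24 libraries.

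RNA was sequenced from HEL cells, an established human erythroleukaemia line with an activating JAK2 mutation. The cells received DMSO, the solvent control, or 500 nM of ruxolitinib, fedratinib, momelotinib, pacritinib or itacitinib. Treatment lasted 4 h or 48 h, which gives 12 groups of 2 libraries, and each time had its own DMSO group. All groups are the same single line, with no other genotype, dose or untreated culture. The labels call the 2 libraries of a group duplicates without saying whether they are separate cultures, so each p-value rests on the spread between libraries alone, which may be technical. Libraries held 32153866 to 56618281 counts. All 9 erythroid and megakaryocytic markers chosen for the line, among them GATA1, TAL1, KLF1, HBG1, HBG2, ITGA2B, GP1BA and NFE2, had medians above 1 CPM (counts scaled to a common library size), up to 1947 CPM for HBG2. Of 15 markers of T cells, B cells, fibroblasts, epithelium and monocytes, 3 did so, namely CD2 at 24.7, CD79A at 6.06 and LYZ at 36.6 CPM, and the defining markers CD3D, CD3E, MS4A1 and CD14 had medians of at most 0.12 CPM.

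Ribosomal proteins are made in equal amounts, 1 of each per ribosome with the exception of the paired stalk proteins, and their mRNAs are among the most abundant and stable of a growing cell. Most of these mRNAs begin with a cytosine followed by an unbroken run of pyrimidines, the 5′ terminal oligopyrimidine or 5′ TOP tract, through which their translation is switched by mTORC1 and the RNA-binding protein LARP1. In the erythroid lineage too little of a single ribosomal protein is known to cause disease: haploinsufficiency of RPS19, RPL5, RPL11 and others underlies Diamond-Blackfan anaemia, and loss of RPS14 contributes to the anaemia of the myelodysplastic syndrome with deletion of the long arm of chromosome 5.

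The start-site sequences are shown first, because they are a feature that the selection by name did not use and that the groups of genes described later share or lack. A window around the gene start was available for 71 of the 90 members in RefSeq (GRCh38.p14). The readthrough genes RPL36A-HNRNPH2 and RPL17-C18orf32 are among the 71 and have the same windows as RPL36A, which held a tract, and RPL17, which did not. These windows are therefore counted under both names. A tract was counted where a C lying no more than 5 bases from the annotated start was followed by at least 4 bases that were all C or T, read on the gene's own strand. By this measure 54 of the 71 members (76.1%) held a tract, against 21.1% of all 35116 start windows in the same set and 22.7% of the 11052 that belong to tested protein-coding genes. A tract beginning exactly at the annotated start was present in 45 members (63.4%), against 4.1% of all windows. For comparison, a tract near the start was held by 15 of 69 mitochondrial ribosomal protein genes (21.7%). It was also held by 11 of 13 genes (84.6%) from a list of other genes known for 5′ TOP tracts or as their close partners. That list was drawn up with such tracts in mind, so its share is no independent comparison.

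The following windows run from 8 bases before the annotated start to 17 bases after it, 5′ to 3′, with the pyrimidine tract in capitals. They were chosen to show the classical members, the paralog pairs and the genes at both ends of the pacritinib response described further on.
RPS19: ccgtcgttCCCTTTCCCCTggctggc
RPS6: agttggccCTCTTTTCCgtggcgcct
RPLP0: cgcgaggcCCTTCTCTCgccaggcgt
RPSA: ccgcctgtCTTTTCCgtgctacctgc
RPS21: agctgcttCCTTTCTCTCTCgcgcgc
RPS29: cgcgcagctggcagcggtggttgttt
RPS27: ctttcgctCCTTTCCggcggtgacga
RPS27L: tgccgagcgcagatcgcttgcagctt
RPL22: ctcacctcCCTTTCTaactccgctgc
RPL22L1: gtagcttcCTCTCTgctctcgcggcc
RPL26: gtgtagttCTCTTCCCTTTTgcggcc
RPL26L1: caggggtcggcgaacgaaacgcggag
RPL7L1: gcggcgccgtagctaggagcggacgc
The windows lie in GRCh38.p14 at chr19:41860247-41860272 (RPS19, plus strand), chr9:19380219-19380244 (RPS6, minus), chr12:120201094-120201119 (RPLP0, minus), chr3:39406712-39406737 (RPSA, plus), chr20:62387095-62387120 (RPS21, plus) and chr14:49598693-49598718 (RPS29, minus). The paralog windows lie at chr1:153990754-153990779 (RPS27, plus), chr15:63157460-63157485 (RPS27L, minus), chr1:6199578-6199603 (RPL22, minus), chr3:170870178-170870203 (RPL22L1, minus), chr17:8383176-8383201 (RPL26, minus), chr5:172958721-172958746 (RPL26L1, plus) and chr6:42879608-42879633 (RPL7L1, plus). Each spans the end of a promoter and the first bases of the first exon. The tracts of RPS19 and RPS21 were 11 and 12 bases long and that of RPSA 7. RPS27 and RPL26 carried a tract where their paralogs RPS27L and RPL26L1 had none in this window, whereas RPL22 and its paralog RPL22L1 both had one. RPS29 had none at the annotated start, and neither did RPL7L1.

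Ribosomal protein mRNAs made up 5.80% to 6.94% of all counts in a library. Per kilobase of transcript, the median tested member stood at 855 CPM. The highest were RPS21 at 3080, RPS16 at 2431, RPL30 at 2328 and RPS29 at 2301 CPM per kilobase. The 5 lowest were RPL36A at 10.4, RPL22L1 at 9.71, RPL39L at 8.61, RPS27L at 5.28 and RPL3L at 0.126 CPM per kilobase. Of these, RPL22L1, RPL39L and RPS27L are paralogs of RPL22, RPL39 and RPS27, and RPL3L is the form of RPL3 known from striated muscle. The paralogs RPL22, RPL39 and RPS27 stood at 324, 582 and 1346 CPM per kilobase. Length was taken from the shortest principal transcript of each gene in GENCODE 29, which is long for RPL37 (7686 bases), RPS27L (6434), RPL27A (4916), RPL37A (3647) and RPS23 (3437), so their values per kilobase are low estimates. RPS10, RPL17 and RPL36A overlap the 3 readthrough genes listed at 0, and their levels, 37.2, 29.2 and 10.4 CPM per kilobase, are uncertain for that reason. GENCODE 29 lists 1149 pseudogenes with ribosomal protein names, of which the table analysed here holds 1, so reads shared with such copies cannot be followed. RPS15A and RPL26 were also low in the DMSO libraries at 4 h, at 60.6 and 60.5 CPM and at 35.9 and 34.5 CPM. The median member there stood at 639 and 627 CPM, and the reason was not tested.

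Levels varied little across the 24 libraries. The standard deviation of log2 CPM over all libraries had a median of 0.105 over the tested members, and 3 members exceeded 0.2, all of them expressed at low levels: RPL3L (0.285), RPL36A (0.279) and RPL39L (0.267). Among abundant members RPS29 and RPL37 varied most, at 0.194 and 0.178. The differences described next are small on this scale, and whether they exceed the replicate spread was judged with edgeR's quasi-likelihood test and Benjamini-Hochberg adjustment over all 16076 genes. A gene is called where the adjusted p was under 0.05, and every log2 fold change below comes with its standard error. Counts of members above 0, without overlap between libraries or with an unadjusted p under 0.05 are also given. No share over all tested genes stands beside those counts, so they do not set the members apart from other genes. In bulk RNA fewer cells of a kind and less RNA per cell cannot be told apart, and CPM values are shares of a library, so a change in total mRNA would not appear.

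Pacritinib, a macrocyclic inhibitor of JAK2 that also binds FLT3 and IRAK1, was followed at 4 h by higher ribosomal protein mRNA across nearly the whole set. Of 86 tested members 71 were higher and 1 was lower than DMSO, where 13.1% of all tested genes were higher and 17.4% lower. The members' median log2 fold change was 0.21, a 1.154-fold difference, beside 0.01 over all tested genes. Of the large subunit, 42 of 52 members rose with a median of 0.20, and of the small subunit 29 of 34 rose with a median of 0.22. The difference between the subunits was not tested. In 82 members the pacritinib and DMSO libraries did not overlap, a count given without the share over all tested genes. The members took 6.94% and 6.94% of the counts of the pacritinib libraries and 6.23% and 6.28% of those of the DMSO libraries at 4 h, and the highest library of another group, the first momelotinib library at 4 h, reached 6.615%.

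**Figure D1:**
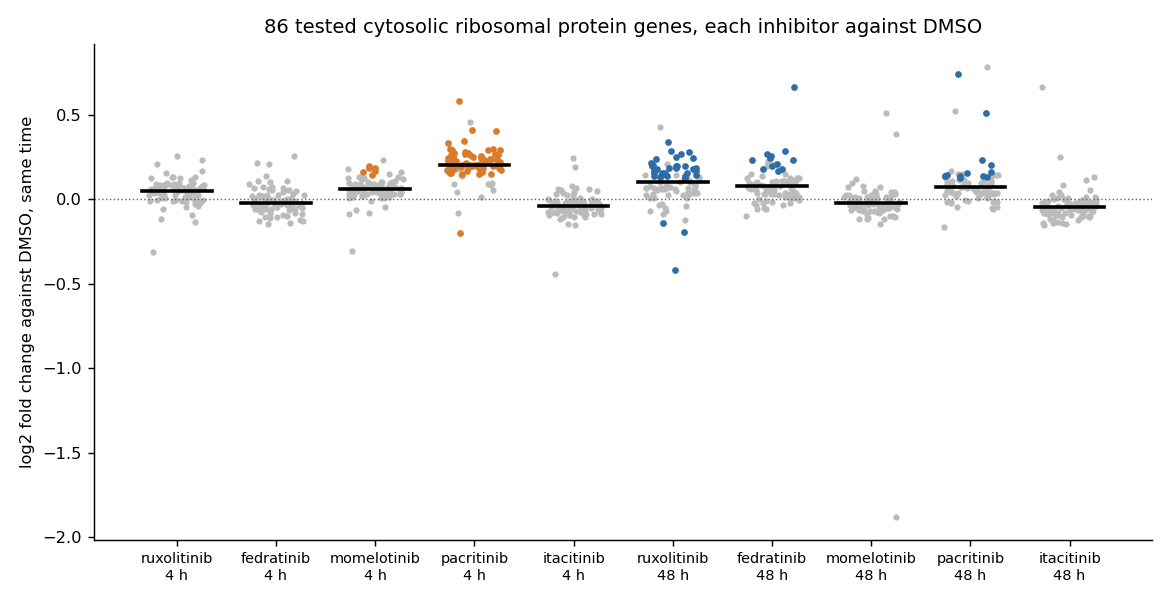
Log2 fold change of each of the 86 tested ribosomal protein genes (1 point a gene) for each inhibitor against DMSO at the same time; coloured points were called at an adjusted p under 0.05 (orange 4 h, blue 48 h), grey points were not, and black bars are medians. At 4 h with pacritinib the cloud sits around a median of 0.21 with 71 genes called higher, and the grey point near -1.88 with momelotinib at 48 h is the weakly expressed RPL3L.

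The largest increase with pacritinib at 4 h was that of RPS29, a zinc-binding protein of the small-subunit head (ENSG00000213741). Its level was 859 and 845 CPM with pacritinib against 571 and 563 CPM with DMSO. The libraries were far apart, and the log2 fold change was 0.59 ± 0.08 (adjusted p = 2.41e-06). RPS21, the most abundant member per kilobase, stood at 1345 and 1278 CPM against 999 and 975, a log2 fold change of 0.41 ± 0.08 (adjusted p = 9.19e-05). RPS15A was at 78.9 and 81.3 CPM against 60.6 and 60.5, a log2 fold change of 0.40 ± 0.05 (adjusted p = 4.56e-07). RPL27, RPS3A and RPS3 followed with log2 fold changes of 0.35 ± 0.07, 0.34 ± 0.05 and 0.30 ± 0.04. RPS3 forms part of the mRNA entry channel and has a known extraribosomal role in DNA repair. In these 6 genes the libraries did not overlap, but that was part of the rule for naming them and adds no support.

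The genes of known blood disease and stress signalling rose by similar amounts. RPS19 was at 628 and 623 CPM with pacritinib against 520 and 517 with DMSO, a log2 fold change of 0.27 ± 0.05 (adjusted p = 0.000105). RPS14 stood at 535 and 519 against 433 and 439 CPM, also 0.27 ± 0.05. RPL5 and RPL11, which together with the small ribosomal RNA of the large subunit bind and inhibit MDM2 when ribosome assembly fails, had log2 fold changes of 0.20 ± 0.04 and 0.15 ± 0.05. Of the 20 members known as Diamond-Blackfan anaemia genes, 19 rose and none fell, with a median of 0.20. RPS6, the S6 kinase substrate of the small subunit, was at 2415 and 2450 CPM against 2012 and 2147, a log2 fold change of 0.23 ± 0.04 (adjusted p = 0.000158). The stalk proteins, which recruit translation factors to the large subunit, rose as well: RPLP0 by 0.20 ± 0.05, RPLP1 by 0.30 ± 0.07 and RPLP2 by 0.25 ± 0.05. RPL3, at the peptidyl transferase centre, rose by 0.24 ± 0.05 and RPSA, the laminin receptor homologue of the small subunit, by 0.21 ± 0.04.

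The 15 members without a called increase included paralogs and genes that match the name rule without being ribosome subunits, although not every paralog was among them. Several genes of this paragraph were named after their values were seen. RPL7L1, a nucleolar relative of RPL7 that is known from ribosome assembly rather than from the mature ribosome, was the only member called lower, at 134 and 127 CPM against 147 and 152 (log2 fold change -0.20 ± 0.05, adjusted p = 0.00219). RPS19BP1, a binding partner of RPS19 and no subunit either, stood at -0.08 ± 0.06. Of the paralogs, RPS27L had 36.8 and 39.1 CPM against 36.5 and 36.6 (0.05 ± 0.08) while RPS27 rose by 0.16 ± 0.04, from 482 and 506 to 555 and 552 CPM. RPL22L1 had 24.05 and 23.99 CPM against 20.9 and 22.6 (0.14 ± 0.09), and RPL22 rose by 0.22 ± 0.05. RPL39L overlapped DMSO (0.10 ± 0.17), and RPL39 rose by 0.25 ± 0.05. RPL26L1 (0.02 ± 0.08) and RPL36AL (0.04 ± 0.06) were not called either, and the difference between a paralog and its partner was not tested. Among canonical subunits RPL24 (0.09 ± 0.04), RPS15 (0.09 ± 0.05) and RPL6 (0.08 ± 0.04) were closest to no difference, while RPS16 (adjusted p = 0.0505) and RPL37 (0.0594) narrowly missed the threshold. Of tested members with a known start window, 47 of 53 with a pyrimidine tract and 10 of 15 without one rose, with medians of 0.22 and 0.17. The 15 include RPL7L1, RPS27L and RPL26L1, but also RPS29 with the largest rise. The 53 include the paralogs RPL22L1 and RPL36AL. The difference between the 2 sets was not tested. The order of the changes with pacritinib at 4 h followed transcript length little (Spearman's rho = -0.07 across the 86 genes, which are not independent). This did not hold for every comparison: rho was -0.303 in fedratinib minus momelotinib at 48 h. The part of length was not tested.

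Other genes of the translation machinery were grouped in lists. The counts of this paragraph stand beside 13.1% of all tested genes higher and 17.4% lower with pacritinib at 4 h. Of 19 tested non-member genes known for 5′ TOP tracts or as their close partners, 16 rose and none fell with pacritinib at 4 h, with a median of 0.18. FAU, which encodes the small-subunit protein eS30 as a ubiquitin-like fusion, rose by 0.29 ± 0.05, EIF4B by 0.27 ± 0.04 and NACA by 0.24 ± 0.05. Mitochondrial ribosomal protein genes, 78 in number, split into 10 higher and 14 lower with a median of 0.02, shares close to those of all tested genes. Of 20 ribosome biogenesis factors 1 rose and 5 fell (median -0.04), among them POLR1B, a core subunit of RNA polymerase I, by -0.32 ± 0.05 and the rRNA methyltransferase gene NOP2 by -0.26 ± 0.05, while the nucleolar phosphoprotein gene NOLC1 rose by 0.20 ± 0.04. Of 9 genes of translational control, EIF4EBP1, MTOR and EIF4EBP2 rose, by 0.18 ± 0.05, 0.16 ± 0.05 and 0.13 ± 0.05. Of 11 host genes of small nucleolar RNAs only 3 were tested and none was called.

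Library composition moved in the same direction, and its part in these results was not tested. At 4 h the RN7SL genes, whose RNA is part of the particle that docks secretory ribosomes at the endoplasmic reticulum, held 3.95% and 3.84% of counts in the pacritinib libraries. The DMSO libraries of that time held 2.42% and 2.52%. At 4 h the share was above both DMSO libraries in every treated library. It was 3.984% and 3.253% with momelotinib and 3.196% and 3.006% with ruxolitinib. With fedratinib it was 3.325% and 2.796%, and with itacitinib 3.329% and 3.574%. At 48 h the DMSO libraries held 3.05% and 3.36%, all treated libraries but 1 held more than both, and the second itacitinib library lay between them at 3.10%. Other protein-coding genes with a longest transcript under 1000 bases, 436 in number, split into 80 higher and 21 lower with pacritinib at 4 h, with a median of 0.11. Of all tested genes 13.1% were higher and 17.4% lower.

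**Figure D2:**
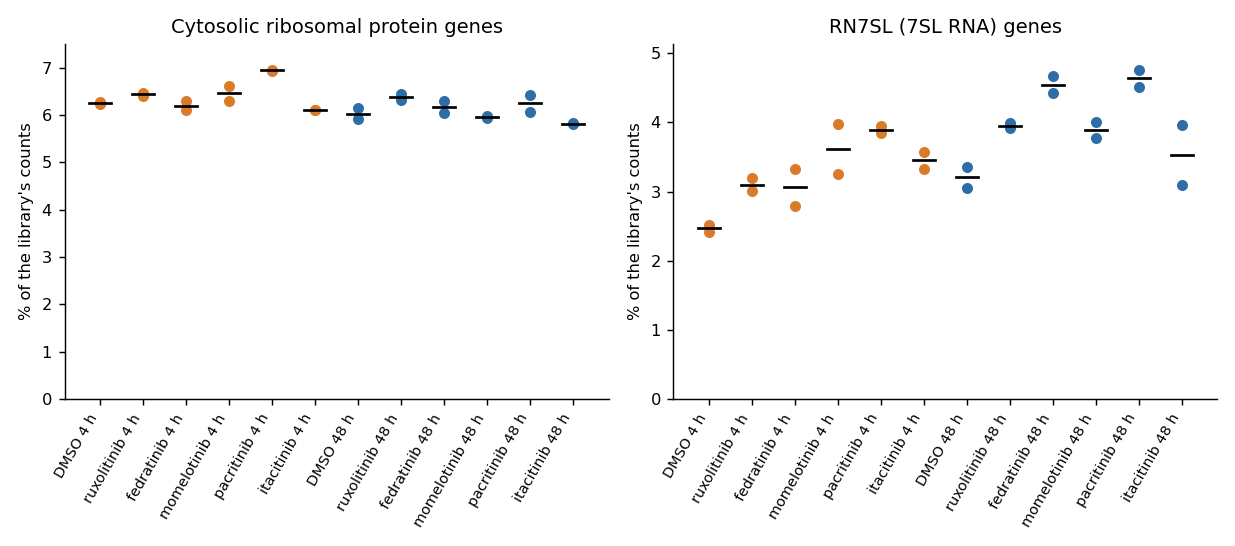
Percentage of each library's counts assigned to the ribosomal protein genes (left) and to RN7SL genes (right), 1 point a library, with the group mean as a bar; orange is 4 h and blue 48 h. The ribosomal protein share was highest in the 2 pacritinib libraries at 4 h (6.94% each), while the RN7SL share was above DMSO in all inhibitor groups at 4 h.

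The other inhibitors changed few or no members at 4 h. With momelotinib, a JAK1, JAK2 and ACVR1 inhibitor, 6 members rose and none fell, where 2.21% of all tested genes rose and 3.79% fell, and 80 of 86 log2 fold changes were above 0 with a median of 0.06. RPL9, a large-subunit protein, led with 436 and 434 CPM against 384 and 373 with DMSO (0.20 ± 0.04, adjusted p = 0.00167). RPS15A, RPS3A, RPS19, RPS3 and RPL34 rose by 0.18 ± 0.05, 0.18 ± 0.05, 0.17 ± 0.05, 0.16 ± 0.04 and 0.15 ± 0.04. In all 6 called members the libraries did not overlap, which was part of the rule for naming them and adds no support. This count rested on single libraries: it was 1 without the first DMSO library, 0 without the second and 1 without the first momelotinib library. The median was 0.006 without the first momelotinib library and 0.1 without the second. Ruxolitinib, an inhibitor of JAK1 and JAK2, gave no called member (background 3.42% higher, 5.04% lower), a median of 0.05 and 11 members with an unadjusted p under 0.05. DESeq2 called 2 members there, and 1 was called higher without the second ruxolitinib library. Fedratinib, mainly a JAK2 inhibitor, gave no called member either (0.616% higher, 0.97% lower), a median of -0.02 and 8 members with an unadjusted p under 0.05, and DESeq2 called 0. Without the first fedratinib library 1 member was called lower. Itacitinib, selective for JAK1, gave no called member (0.672% higher, 0.106% lower), a median of -0.04 and 6 members with an unadjusted p under 0.05, with 0 by DESeq2. For RPLP0 the 95% interval of the itacitinib difference ran from -0.10 to 0.09 on the log2 scale.

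Of the 20 ribosome biogenesis factors none rose in these 4 groups, while 5 fell with ruxolitinib, 2 each with fedratinib and momelotinib and none with itacitinib, beside the shares of all genes given above. Their medians were -0.10, -0.12, -0.09 and -0.07 in that order, and the list was not tested against the ribosomal proteins. With ruxolitinib POLR1B by -0.41 ± 0.05 and the assembly factor gene RRS1 by -0.25 ± 0.06 were among those that fell. With fedratinib RRS1 (-0.31 ± 0.06) and POLR1B (-0.22 ± 0.05) fell, and with momelotinib POLR1B (-0.28 ± 0.05) and RRS1 (-0.22 ± 0.06). PDCD4, an inhibitor of the helicase eIF4A, rose with ruxolitinib (0.30 ± 0.05) and momelotinib (0.21 ± 0.05). All these comparisons use the same 2 DMSO libraries.

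At 48 h ruxolitinib was followed by a partial rise. Of 86 members 31 rose and 3 fell, against 12.5% and 13.2% of all tested genes, with a median of 0.10. RPS27, a zinc-finger protein of the small subunit, showed the largest called increase: it was at 541 and 547 CPM with ruxolitinib and 445 and 414 CPM with DMSO (0.34 ± 0.04, adjusted p = 2.93e-07). RPS29 followed with 886 and 725 against 669 and 651 CPM (0.29 ± 0.08, adjusted p = 0.0106), where the 2 treated libraries were themselves well apart. RPL37 and RPL37A, zinc-finger proteins of the large subunit, rose by 0.28 ± 0.09 and 0.25 ± 0.05, and RPS12 by 0.27 ± 0.05. RPS27L, the p53-regulated paralog of RPS27, rose by 0.25 ± 0.08, from 29.02 and 30.07 to 34.4 and 36.05 CPM. The stalk genes RPLP1, RPLP0 and RPLP2 rose by 0.24 ± 0.07, 0.16 ± 0.05 and 0.13 ± 0.05, and RPL39, RPS6 and RPL3 by 0.19 ± 0.05, 0.14 ± 0.04 and 0.13 ± 0.05.

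With ruxolitinib at 48 h, 3 members fell. RPS10, at the head of the small subunit, was at 16.6 and 15.7 CPM against 20.8 and 22.3 (-0.42 ± 0.08, adjusted p = 0.00023), with the doubt over its counts given above. RPS19BP1 fell by -0.19 ± 0.06 and RPL24 by -0.14 ± 0.04. RPS19, RPL5, RPL11 and RPSA were not called, with log2 fold changes from 0.03 to 0.08. The list counts that follow stand beside 12.5% of all tested genes higher and 13.2% lower. Of the 20 Diamond-Blackfan anaemia genes 5 rose and 1 fell. Of 20 ribosome biogenesis factors 12 fell and 1 rose, with RRP12 at -0.50 ± 0.06, RRP9 at -0.48 ± 0.06 and the polymerase I initiation factor gene RRN3 at 0.38 ± 0.06. In the 5′ TOP list EEF1B2, EEF1A1 and TPT1 rose by 0.31 ± 0.05, 0.20 ± 0.04 and 0.18 ± 0.04, and NPM1, NAP1L1 and EIF3E fell by -0.20 ± 0.05, -0.15 ± 0.04 and -0.15 ± 0.05. PDCD4, which inhibits the helicase eIF4A, rose by 0.85 ± 0.05 (adjusted p = 6.06e-15). Mitochondrial ribosomal protein genes gave 4 higher and 13 lower of 78. RN7SL genes held 3.92% and 3.99% of counts after ruxolitinib, against 3.05% and 3.36% in the DMSO libraries. Other short genes split into 66 higher and 41 lower of 436, and the part of library composition was not tested. The count of 34 called members fell to 9 without the second DMSO library, 12 without the first ruxolitinib library and 19 without the second, and among the named members RPS27, RPS12, RPL37A and RPS10 kept their calls in every alternative fit.

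Fedratinib and pacritinib gave smaller sets at 48 h. With fedratinib 12 members rose and none fell (3.66% and 4.04% of all genes), with a median of 0.08. Of the called members RPL36A rose most, from 3.66 and 3.70 to 5.75 and 5.94 CPM (0.67 ± 0.20, adjusted p = 0.0339), at a level where its overlap with a readthrough gene leaves the counts uncertain. RPL36A was also above both DMSO libraries with itacitinib at 48 h, at 6.10 and 5.63 CPM (0.67 ± 0.19, adjusted p = 0.14), with pacritinib, at 5.85 and 4.78 CPM (0.53 ± 0.20, adjusted p = 0.0678), and with momelotinib, at 5.34 and 4.31 CPM (0.39 ± 0.20, adjusted p = 0.374), none of which was called. RPL37, RPLP1, RPL37A, RPS27 and RPS12 rose by 0.29 ± 0.09, 0.27 ± 0.07, 0.25 ± 0.05, 0.25 ± 0.04 and 0.23 ± 0.05, and RPLP2 and RPL39 by 0.20 ± 0.05 and 0.18 ± 0.05. The count was 0 without the second DMSO library, 1 without the first fedratinib library and 7 without the first DMSO library, and the median was 0.041 and 0.046 in the first 2 of these fits.

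With pacritinib at 48 h 13 members rose and none fell (8.26% and 10.1% of all genes), and the median was 0.08. The leading gene was RPL39L, the RPL39 paralog known from testis and some tumours, at 9.30 and 7.49 CPM against 5.398 and 4.589 with DMSO (0.75 ± 0.17, adjusted p = 0.00166). RPL17 stood at 25.2 and 24.2 CPM against 18.1 and 16.6 (0.51 ± 0.09, adjusted p = 6.16e-05). RPL26, a p53 mRNA-binding protein, rose by 0.24 ± 0.07, RPL36 by 0.20 ± 0.07, RPS15 by 0.16 ± 0.05 and RPL7A by 0.16 ± 0.04. RPS14, RPL3 and RPS27 rose by 0.14 ± 0.05, 0.14 ± 0.05 and 0.12 ± 0.04, while RPS19, RPL5, RPL11 and RPSA were within 0.04 of 0. The median was 0.038 without the second DMSO library and 0.02 without the first pacritinib library, and 0.124 without the second pacritinib library. The count of 13 was 2 without the second DMSO library and 1 without the first pacritinib library, and among the named members RPL17 alone kept its call in every alternative fit. All 3 tested host genes of small nucleolar RNAs rose with pacritinib, EPB41L4A-AS1 by 0.33 ± 0.08, SNHG15 by 0.27 ± 0.07 and SNHG8 by 0.21 ± 0.06. RN7SL genes held 4.67% and 4.42% of counts after fedratinib, and 4.52% and 4.76% after pacritinib. Other short genes gave 42 higher and 11 lower with fedratinib and 46 higher and 39 lower with pacritinib. Over all tested genes the shares were 3.66% and 4.04% with fedratinib and 8.26% and 10.1% with pacritinib. The part of library composition was not tested.

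Momelotinib and itacitinib gave no called member at 48 h. With momelotinib the background was 0.995% higher and 0.946% lower, the median was -0.02, 6 members had an unadjusted p under 0.05 and DESeq2 called 2. RPL39L stood at 6.98 and 7.26 CPM against 5.398 and 4.589 with DMSO, groups that did not overlap (0.51 ± 0.17, adjusted p = 0.112). With itacitinib the background was 0.0871% higher and 0.355% lower, the median was -0.04, 13 members had an unadjusted p under 0.05 and DESeq2 called 2. The fitted value farthest from 0 in any comparison with DMSO was that of RPL3L, -1.88 ± 1.03 with momelotinib at 48 h, where the libraries held 0.0278 and 0.0756 CPM against 0.217 and 0.189, and it was not called.

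**Figure D3:**
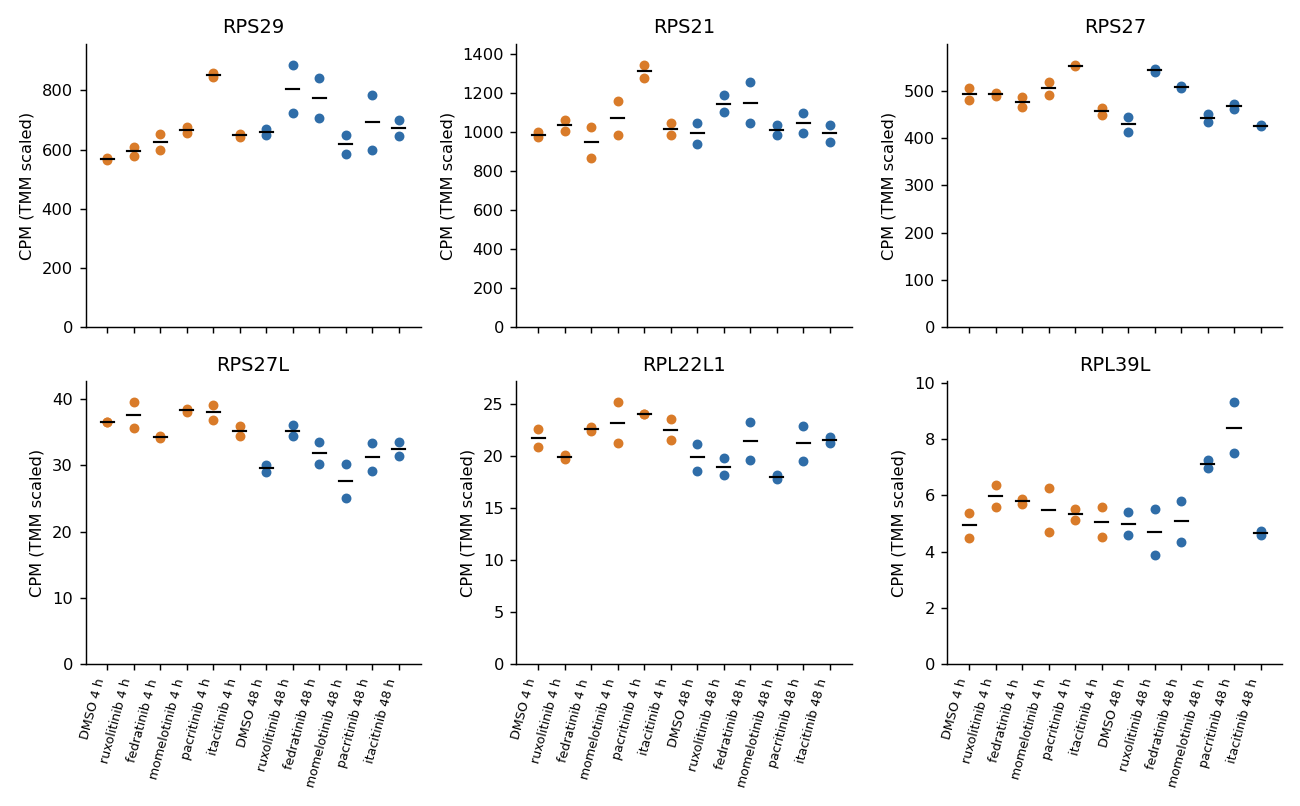
Level in each library (CPM, TMM scaled, axes from 0) of RPS29, RPS21, RPS27 and the paralogs RPS27L, RPL22L1 and RPL39L across the 12 groups, with group means as bars; orange is 4 h and blue 48 h. RPS29 was high in both pacritinib libraries at 4 h (859 and 845 CPM), RPS27 was highest with pacritinib at 4 h and ruxolitinib at 48 h, and RPL39L was highest with pacritinib at 48 h.

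In DMSO alone no member was higher and 5 (5.81%) were lower at 48 h than at 4 h, a share near the 4.12% of all genes that were lower, while 4.04% were higher, with a median of -0.08 and 13 of 86 values above 0. RPS27L fell from 36.5 and 36.6 to 29.02 and 30.07 CPM (-0.31 ± 0.08, adjusted p = 0.0107). RPS15 fell by -0.21 ± 0.05, RPS27 by -0.20 ± 0.04, RPL11 by -0.19 ± 0.05 and RPS2 by -0.14 ± 0.05. The count depended on every DMSO library, with 3 and 0 without the first and the second library of 48 h, and 2 and 1 without the first and the second of 4 h. Since each time has its own DMSO group, the difference between times was tested within one model as the effect at 48 h minus the effect at 4 h.

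For pacritinib this difference was called lower in 18 members and higher in none, beside 7.58% of all genes lower and 10.3% higher, with a median of -0.13. The largest were RPS29 at -0.52 ± 0.12 (adjusted p = 0.00232), RPS21 at -0.34 ± 0.11, RPS15A at -0.31 ± 0.08, RPS3A at -0.30 ± 0.07, RPS25 at -0.27 ± 0.08 and RPS20 at -0.27 ± 0.06. RPS19, RPSA and RPL5 differed by -0.25 ± 0.07, -0.23 ± 0.06 and -0.16 ± 0.06. Of 34 small-subunit members 11 were called, with a median of -0.18, and of 52 large-subunit members 7, with a median of -0.12. In the 5′ TOP list 11 of 19 were lower. Of the 71 members higher at 4 h, 11 were also higher at 48 h, 15.5% of the first set and 84.6% of the second. Over all tested members 15.1% were higher at 48 h and 82.6% at 4 h, so these shares are close to those of the whole set. Among these were RPL3, RPL7A, RPL12, RPL17, RPL26, RPL36, RPS3, RPS14 and RPS27, named after their values were seen. The other 2 members higher at 48 h were RPL39L and RPS15, whose difference between times was 0.65 ± 0.24 for RPL39L (adjusted p = 0.0575). Without the first pacritinib library of 48 h, 34 members were called lower, and without the first DMSO library of 48 h 11.

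**Figure D4:**
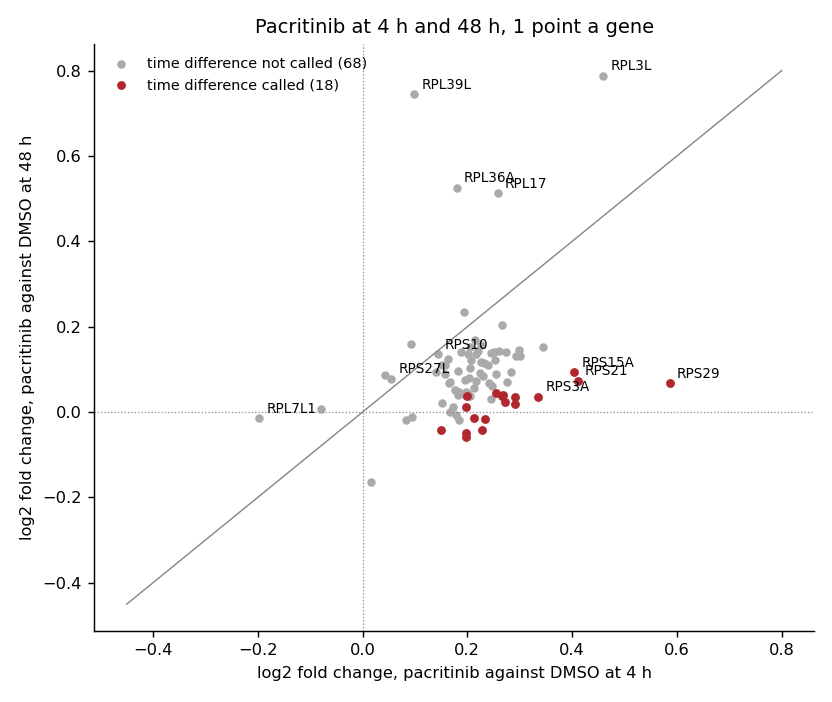
Log2 fold change with pacritinib against DMSO at 4 h (horizontal) and at 48 h (vertical), 1 point for each of 86 genes, with the line of equal effect; red points are the 18 genes whose difference between times was called. For 76 genes the point lies below the line, and RPL39L, RPL17 and RPL36A lie well above it.

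For ruxolitinib the effect was larger at 48 h in RPS27 (0.34 ± 0.06, adjusted p = 0.00025), RPS12 (0.25 ± 0.07) and RPS13 (0.20 ± 0.06). It was lower in RPS10 (-0.62 ± 0.11, adjusted p = 0.000284). These 3 and 1 of 86 members were smaller shares than the 4.32% and 4.4% of all genes, so the counts do not set the members apart. The count was 2 without the second DMSO library of either time, without the first ruxolitinib library of 48 h or without the first of 4 h. For fedratinib 7 members had a higher effect at 48 h and none a lower one (2.0% and 2.12% of all genes). RPL37 (0.42 ± 0.12), RPL41 (0.37 ± 0.08), RPS28 (0.32 ± 0.08), RPL38 (0.31 ± 0.08), RPLP2 (0.30 ± 0.07) and RPS27 (0.30 ± 0.06) led. The fedratinib count was 0 without the second DMSO library of 48 h, 1 without the second DMSO library of 4 h, the first fedratinib library of 48 h or the second of 4 h, and 14 without the first fedratinib library of 4 h. For momelotinib RPL9 (-0.31 ± 0.06, adjusted p = 0.00199) and RPS7 (-0.25 ± 0.06), 2 members, had lower effects at 48 h, beside 1.57% of genes higher and 0.759% lower, and the count was 1 without either DMSO library of 48 h, either momelotinib library of 48 h or the second DMSO library of 4 h. For itacitinib no member was called (0.0% of genes higher, 0.0124% lower), 1 had an unadjusted p under 0.05 and DESeq2 called 0.

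The inhibitors were also compared directly at the same dose and time in 8 pairs, with p-values adjusted over genes within each pair but not over the pairs. Ruxolitinib and itacitinib share a pyrrolopyrimidine core, and fedratinib, momelotinib and pacritinib share an anilinopyrimidine, which in pacritinib is closed into a macrocycle. At 4 h pacritinib stood above both other anilinopyrimidines. In fedratinib minus pacritinib 74 members were lower and 1 higher (12.1% and 16.6% of all genes), with a median of -0.22. RPS21 was at 1027 and 868 CPM with fedratinib against 1345 and 1278 with pacritinib (-0.47 ± 0.08, adjusted p = 1.79e-05), and RPS29 at 654 and 597 against 859 and 845 (-0.45 ± 0.08, adjusted p = 0.000142). RPL31, RPS18 and RPLP2 differed by -0.37 ± 0.05, -0.37 ± 0.05 and -0.36 ± 0.05. The single higher member was RPL7L1 (0.14 ± 0.05). In momelotinib minus pacritinib 48 were lower and 1 higher (7.96% and 12.8% of all genes), with a median of -0.14 and with RPS29 (-0.35 ± 0.08), RPS21 (-0.29 ± 0.08) and RPS18 (-0.24 ± 0.05) in front, and RPL7L1 again the higher one (0.15 ± 0.05). That count was 8 without the second momelotinib library, 12 without the second pacritinib library and 32 without the first.

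Between fedratinib and momelotinib at 4 h no member was called (1.0% of genes higher, 0.404% lower), with a median of -0.08, and DESeq2 called 1. Of 86 log2 fold changes 4 were above 0, the libraries of 44 members did not overlap and 22 members had an unadjusted p under 0.05. The shares of all tested genes for these counts are not given. The 95% interval of the difference ran from -0.12 to 0.07 for RPLP0, from -0.11 to 0.05 for RPL5 and from -0.28 to -0.08 for RPS14, whose adjusted p was 0.0688. Without the second momelotinib library 10 members were called lower, and without the first fedratinib library 1. At 48 h fedratinib was above momelotinib in 14 members and below in none (2.87% and 3.81%), with RPS29 at 840 and 706 against 650 and 584 CPM (0.33 ± 0.08), RPL41 at 0.26 ± 0.06, RPS12 at 0.26 ± 0.05 and RPL37A at 0.23 ± 0.05. That count was 2 without the first fedratinib library, 4 without the first momelotinib library and 2 without the second.

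At 48 h pacritinib and fedratinib differed in 6 members. RPL26L1, RPS12 and RPL10 were higher with fedratinib (0.27 ± 0.09, 0.17 ± 0.05 and 0.15 ± 0.05) and RPL39L, RPL17 and RPL15 higher with pacritinib (-0.72 ± 0.17, -0.30 ± 0.09 and -0.14 ± 0.04). With 3 of 86 members in each direction, the shares were smaller than the 6.48% and 5.52% of all genes. The median of -0.00 came with a 95% interval of -0.08 to 0.11 for RPLP0. Leaving out the first fedratinib library left 0 called members, the first pacritinib library 3 and the second pacritinib library 4. Momelotinib was below pacritinib in 12 members and above in none (3.31% and 4.76%), with RPL17 at 19.0 and 18.6 against 25.2 and 24.2 CPM (-0.39 ± 0.09), RPL12 at -0.21 ± 0.05 and RPS14 at -0.18 ± 0.05. That count was 2 and 1 without the first and the second momelotinib library and 0 without the first pacritinib library.

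In ruxolitinib minus itacitinib more members were called higher than lower at both times. Of 86 members at 4 h, 6 were higher and none lower (2.29% and 3.61% of all genes). The libraries of 74 members did not overlap, but the share over all tested genes is not given, so that count is no support. Among the 6 were RPL37 (0.32 ± 0.09), RPL37A (0.21 ± 0.05), RPL30 (0.18 ± 0.05), RPS20 (0.18 ± 0.04) and RPL11 (0.15 ± 0.05). That count was 2 and 0 without the first and the second itacitinib library and 1 without the first ruxolitinib library. At 48 h 45 were higher and 1 lower (11.7% and 10.2%), with a median of 0.13. RPS27 was at 541 and 547 CPM with ruxolitinib against 425 and 428 with itacitinib (0.35 ± 0.04, adjusted p = 2.24e-07). RPS4X was at 580 and 575 against 452 and 480 CPM (0.31 ± 0.04, adjusted p = 1.78e-06). RPL37, RPS25, RPS12, RPLP1 and RPLP0 were higher by 0.35 ± 0.09, 0.32 ± 0.06, 0.30 ± 0.05, 0.29 ± 0.07 and 0.25 ± 0.05, and RPS6, RPL3 and RPS14 by 0.23 ± 0.04, 0.20 ± 0.05 and 0.18 ± 0.05. RPS10 was lower (-0.32 ± 0.08). The count was 27 without the first ruxolitinib library and 30 without the second itacitinib library. RN7SL genes held 3.97% and 3.10% of counts in the itacitinib libraries, which overlap the ruxolitinib values given above.

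**Figure D5:**
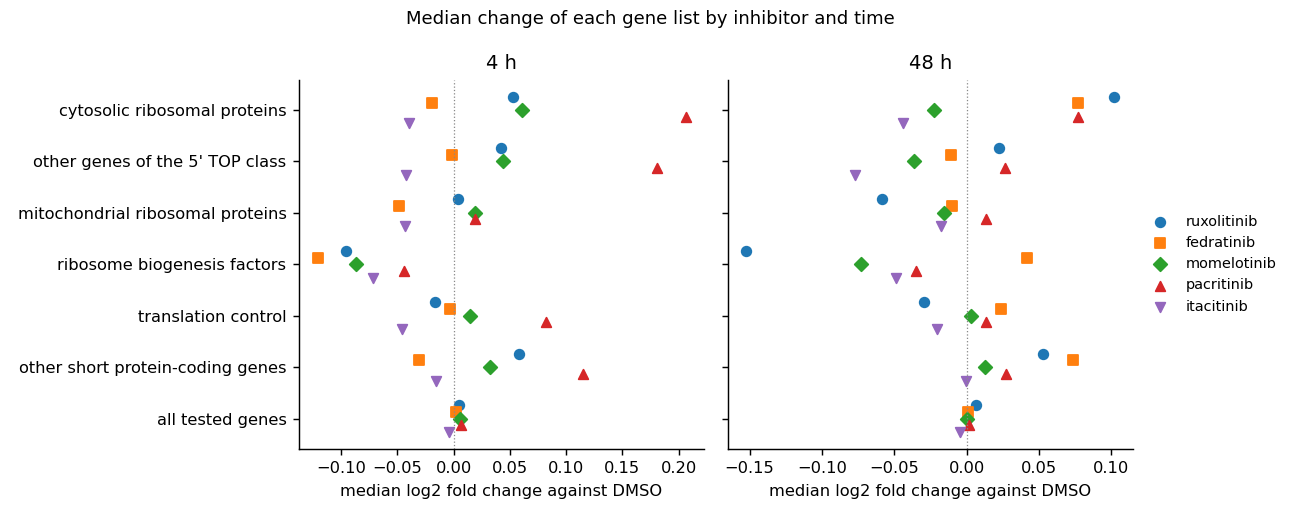
Median log2 fold change against DMSO of each gene list (rows) for each inhibitor (symbols) at 4 h (left) and 48 h (right); the lists differ in size from 9 genes for translation control to 16076 for all tested genes. The ribosomal proteins (0.21) and the 5′ TOP list (0.18) stand to the right with pacritinib at 4 h, while biogenesis factors are lowest with ruxolitinib at 48 h (-0.15).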

How the data were processed

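The authors' deposited table holds whole-number read counts per gene for 24 libraries, with symbols, Ensembl identifiers and gene types. Per the submitters' processing notes STAR 2.5.1a, edgeR and GRCh38 were used. Which tool counted the reads, whether it used strand, and how it placed reads with several matches: not given in the sources used here. In all, the table has 34343 rows, of which 130 repeat an identifier with identical counts and were dropped.

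Counts were filtered with filterByExpr, scaled by TMM and fitted with edgeR 4.0.16 (R 4.3.3), 1 mean per group over all libraries, followed by quasi-likelihood tests in 24 comparisons and Benjamini-Hochberg adjustment over 16076 genes, with a threshold of 0.05. SE is the absolute log2 fold change divided by the square root of F, and 95% intervals use 31.4 degrees of freedom. The scripts were tested on simulated data. Alternatives were DESeq2 1.42.0, other scaling, filters, blocks and left-out libraries. RefSeq start windows and GENCODE 29 lengths were matched by symbol and identifier.

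The members and lists were chosen with earlier results of these data known. Named members were those of a fixed set of 16 (paralog pairs, disease genes, stalk), the 5 highest and 5 lowest, and up to 6 called members per direction and comparison with the largest changes and no overlap between libraries. In other lists up to 3 per direction are named. Some genes that this rule selects are not reported here. Canonical subunits or list members outside that rule are named as exceptions to a group.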

Additional observations from a re-analysis of the deposited data

Results flagged for a closer look

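The effect of an inhibitor on a named member differed between 4 h and 48 h, by the test of the difference itself, in 21 cases. Values are the log2 effect at 48 h minus that at 4 h. For pacritinib these were RPS29 (-0.52), RPS21 (-0.34), RPS15A (-0.31), RPS3A (-0.30), RPS25 (-0.27), RPS20 (-0.27), RPS19 (-0.25), RPSA (-0.23) and RPL5 (-0.16), all called higher than DMSO at 4 h. For fedratinib they were RPL37 (0.42), RPL41 (0.37), RPS28 (0.32), RPL38 (0.31), RPLP2 (0.30) and RPS27 (0.30). For ruxolitinib they were RPS27 (0.34), RPS12 (0.25), RPS13 (0.20) and RPS10 (-0.62), and for momelotinib RPS7 (-0.25) and RPL9 (-0.31). Some alternative setting lost the calls of RPS29, RPS21 and RPL5 for pacritinib, RPL37 for fedratinib and RPS13 for ruxolitinib. With left-out libraries included, the pacritinib calls that held in every alternative were those of RPS15A, RPS20, RPS3A and RPSA. For ruxolitinib they were those of RPS27 and RPS10, for momelotinib that of RPL9, and for fedratinib none. Groups of 2 libraries were not tested for outliers by Dixon's criterion. The counts of the 2 libraries differed most with momelotinib at 4 h (chi-square per degree of freedom 15.8), itacitinib at 48 h (11.9) and fedratinib at 4 h (10.5), and by 3.58 to 8.61 in the other groups.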

How the results depend on the processing

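Medians of the members' log2 fold changes moved by less than the replicate spread in all 186 fits under other settings, and no call of a named member changed direction. Of 160 such calls 53 held in every alternative, 17 of 20 with pacritinib at 4 h. Counts of called members moved more. For ruxolitinib at 4 h (0 called) DESeq2 gave 2, RLE scaling 1, no low-count filter 6, the stricter filter 1, protein-coding genes only 2 and the robust prior, an alternative added after seeing the data, 2. DESeq2 gave 10 for momelotinib at 4 h (6 called), 2 each for momelotinib and itacitinib at 48 h (0 called), 9 for DMSO time (5), 7 and 29 for the momelotinib (2) and pacritinib (18) time differences, 13 for ruxolitinib minus itacitinib at 4 h (6) and 1 for fedratinib minus momelotinib at 4 h (0). Without a low-count filter these became, for itacitinib at 4 h 2, for momelotinib and itacitinib at 48 h 1 each, for pacritinib at 48 h (13) 23, for DMSO time 12, for the fedratinib (7), momelotinib and pacritinib time differences 13, 4 and 29, and for the same 2 pairs at 4 h 18 and 5. Protein-coding genes only gave 21 for pacritinib at 48 h and 8 for DMSO time. Libraries of the same time only gave 27 for pacritinib at 48 h, 1 for itacitinib at 48 h and 20 for momelotinib minus pacritinib at 48 h (12). The robust prior gave 9 for DMSO time and 1 for fedratinib minus momelotinib at 4 h. The cause was not tested.

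Over all tested genes, deviations of same-numbered libraries correlated between -0.0377 and 0.048 over 66 pairs of groups. Whether the members alone shifted together by replicate number was not tested. At 48 h their share of counts was higher in the first library of every group but itacitinib. At 4 h it was higher in the first library with ruxolitinib, fedratinib and momelotinib, and lower with DMSO, pacritinib and itacitinib. With a replicate block the counts were 3 for ruxolitinib at 4 h, 22 for pacritinib at 48 h, 11 for DMSO time, 14 for the fedratinib time difference, 11 for ruxolitinib minus itacitinib at 4 h and 2 for fedratinib minus momelotinib at 4 h.

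With 1 library left out, counts ranged against DMSO at 4 h from 0 to 1 for ruxolitinib, 0 to 1 for fedratinib, 0 to 7 for momelotinib and 61 to 67 for pacritinib. At 48 h they ranged from 9 to 30 for ruxolitinib, 0 to 14 for fedratinib and 1 to 13 for pacritinib, and for DMSO time from 0 to 3. Time differences ranged from 2 to 3 for ruxolitinib, 0 to 14 for fedratinib, 1 to 2 for momelotinib and 11 to 34 for pacritinib. In the pairs at 4 h they ranged from 0 to 6 for ruxolitinib and itacitinib, 0 to 10 for fedratinib and momelotinib, 56 to 70 for fedratinib and pacritinib and 8 to 57 for momelotinib and pacritinib. At 48 h the same pairs gave 27 to 34, 2 to 15, 0 to 5 and 0 to 16. Medians then ranged from -0.053 to 0.007 for fedratinib and 0.006 to 0.1 for momelotinib at 4 h. At 48 h they ranged from 0.07 to 0.135 for ruxolitinib, 0.041 to 0.097 for fedratinib and 0.02 to 0.124 for pacritinib. In the time differences they ranged from -0.128 to -0.03 for momelotinib and -0.192 to -0.093 for pacritinib. In the pairs they ranged at 4 h from -0.123 to -0.031 for fedratinib minus momelotinib, -0.256 to -0.192 for fedratinib minus pacritinib and -0.194 to -0.104 for momelotinib minus pacritinib, and at 48 h from 0.12 to 0.157 for ruxolitinib minus itacitinib. In all, 11 of 116 such medians moved by more than the replicate spread. That spread was computed from the same 2 libraries of each group. Between 2 groups, leaving 1 library out can hardly move a median beyond it, so this count does not show that the medians are stable. Weakly expressed members such as RPL3L, RPL36A and RPL39L had the widest errors.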
